A study of Rattus norvegicus with 24 samples.

Results

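The genes described here are 7 genes of monocytes and macrophages: Csf1r, Cd68, Lyz2, Ctss, Cd163, Cd36 and Msr1. They were taken by name, as every non-control probe of the rat microarray whose gene name equals one of the 7. This gave 9 probes of 30367, with 2 probes each for Csf1r and Cd36 and 1 for each other gene. The array names 25885 genes in all. Blood RNA was hybridized on 24 arrays, 4 in each of 6 groups, and every array also carried a common reference RNA pooled from the rats of the experiment. All rats were male Sprague-Dawley rats from Charles River, 8 weeks old at the start and kept on their diet for 6 weeks. Diet G0 was a semi-synthetic diet, G1 the same diet with oat beta-glucan of high molecular weight, and G2 with that of low molecular weight. Groups C-G0, C-G1 and C-G2 received no lipopolysaccharide (saline, by the study's methods), and groups LPS-G0, LPS-G1 and LPS-G2 received intravenous lipopolysaccharide (LPS, the outer membrane glycolipid of Gram-negative bacteria) at 10 mg/kg to induce enteritis. For 2 of the 4 LPS-G0 arrays, replicates 3 and 4, the title and source name give LPS while the field for inflammation induction gives control. Both were kept in LPS-G0. The arrays are called biological replicates by the labels, so p-values measure the spread between these arrays.

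Monocytes circulate in blood and enter tissue, where they can become macrophages. Their survival and maturation depend on the receptor for colony-stimulating factor 1, and the mature cells are rich in lysosomes and in scavenger receptors that bind modified lipoproteins, haemoglobin complexes and microbial ligands. In whole blood they are a minor population among erythroid cells, platelets, neutrophils and lymphocytes. A lower value in such bulk RNA can come from fewer cells of a type or from less RNA per cell, and these cannot be told apart.

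Signal separated the 7 genes into 5 that were measured and 2 that were not. Lyz2, which encodes a lysozyme that cleaves bacterial cell wall, was the brightest member probe, with a mean log2 processed Cy3 signal of 15.9 over the 24 arrays. The main probe of Cd36 had 12.1 and its second probe 11.4, Ctss and Cd68 each had 10.2, and the Csf1r probes had 8.16 and 8.16. All 7 of these probes were well above background in Cy3, the channel of the rat RNA by the labels, on 24 of 24 arrays, and none was marked as saturated in either channel. Cd163, the macrophage receptor for haptoglobin-haemoglobin complexes, was well above background on 0 of 24 arrays, with a mean log2 signal of 3.65. Msr1, the class A macrophage scavenger receptor, was well above background on 2 of 24 arrays, C-G0 replicate 2 and C-G1 replicate 1, with a mean of 3.98. No fold change is given for Cd163 or Msr1. Signals of different probes are not comparable as levels of different genes.

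**Figure D1:**
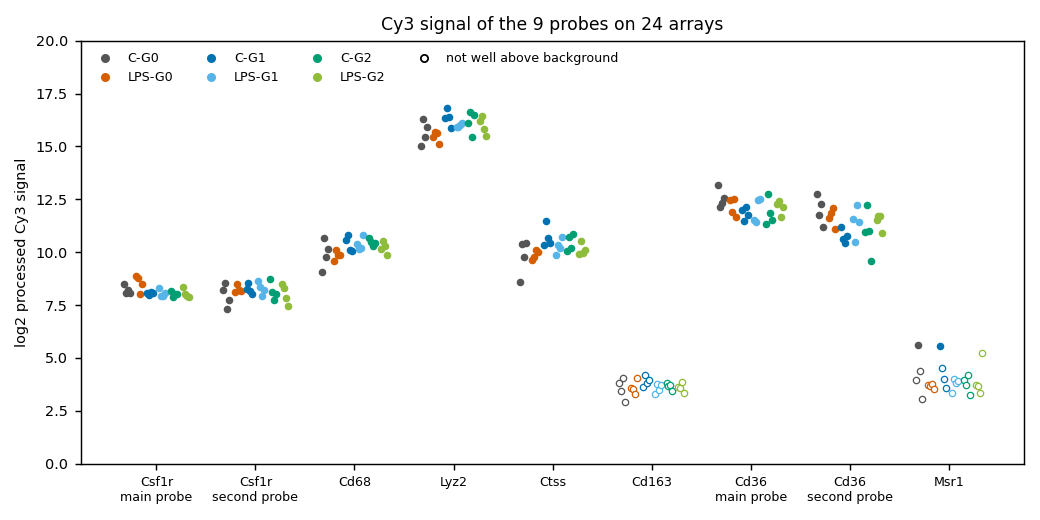
Log2 processed Cy3 signal (y axis) of the 9 probes (x axis) on 24 arrays, 1 point per array, colored by group; open points are not well above background. All 7 probes of Csf1r, Cd68, Lyz2, Ctss and Cd36 are above background on every array, Cd163 on 0 and Msr1 on 2 of 24 arrays.

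The probes are 60 bases long, and the array's design places them on the rn4 assembly. The Lyz2 probe lies at chr7:56607738-56607797, Cd68 at chr10:56481726-56481785, Ctss at chr2:190466474-190466533, Cd163 at chr4:160423704-160423763 and Msr1 at chr16:56293586-56293645. The main Cd36 probe lies at chr4:13525426-13525485 and the second at chr4:13522273-13522332. The main Csf1r probe lies at chr18:57093036-57093095. The second lies downstream at chr18:57105231-57105932, and its 60 bases span 702 bases of genome. Each probe is assigned by the design to a RefSeq transcript of its gene (NM_001029901 for Csf1r, NM_031561 for Cd36), without a statement of exon or untranslated region. The Lyz2 probe lists 2 RefSeq transcripts, so its signal may include a related lysozyme transcript and is uncertain in that respect. Lyc2, a lysozyme gene on the same chromosome with its own probe, gave signal well above background on 10 of 24. The main probe of a gene is the one with the brighter mean Cy3 signal. For Csf1r that choice rests on less than 0.01 of log2 signal, so both probes are given.

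Lyz2, Ctss and Cd68 varied together across the arrays, as given below, and their promoters are therefore shown. The sequences are the 250 bases before the RefSeq start site on the GRCr8 assembly, 5′ to 3′ on the strand of the gene, and capitals mark every match to 3 motifs searched on both strands. The motifs are the core GAGGAA bound by the myeloid factor PU.1, the AP-1 site TGANTCA, and TTGCNNAA as a C/EBP site. They occur in 23.3%, 6.34% and 9.22% of 33469 rat promoter windows of the same length. The windows lie at chr7:54798012-54798261 on the minus strand for Lyz2, chr2:185775146-185775395 on the plus strand for Ctss and chr10:54882442-54882691 on the minus strand for Cd68.
Lyz2: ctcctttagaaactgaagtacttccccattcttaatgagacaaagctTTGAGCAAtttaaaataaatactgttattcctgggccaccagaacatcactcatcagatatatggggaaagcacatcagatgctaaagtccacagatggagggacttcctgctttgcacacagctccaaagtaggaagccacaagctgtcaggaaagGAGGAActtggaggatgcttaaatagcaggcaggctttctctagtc
Ctss: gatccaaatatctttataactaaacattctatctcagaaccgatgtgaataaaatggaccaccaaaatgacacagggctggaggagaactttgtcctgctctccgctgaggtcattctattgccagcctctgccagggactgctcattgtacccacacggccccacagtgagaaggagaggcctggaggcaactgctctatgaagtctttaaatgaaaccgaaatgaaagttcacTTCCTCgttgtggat
Cd68: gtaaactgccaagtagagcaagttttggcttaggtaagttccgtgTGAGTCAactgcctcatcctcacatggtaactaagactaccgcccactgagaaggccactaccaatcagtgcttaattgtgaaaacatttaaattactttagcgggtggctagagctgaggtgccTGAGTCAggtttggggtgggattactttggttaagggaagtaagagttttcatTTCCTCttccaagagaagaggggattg
Each of the 3 windows held 1 match to the PU.1 core, starting 46 bases before the start site in Lyz2, 15 in Ctss and 27 in Cd68, on the plus strand in Lyz2 and on the minus strand in the other two. Cd68 also held 2 AP-1 matches and Lyz2 held 1 C/EBP match. The Cd36 window held 1 PU.1 core match and that of Csf1r 2. The Cd163 window held none of the 3 motifs, and Msr1 was not in the promoter table. These matches are descriptions of letters and not of binding. The last 39 bases before the start site were identical in Lyz2 and Lyc2.

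Values below are log2 ratios of the rat RNA (Cy3) over the reference (Cy5), and the study's methods name the dyes the other way round, which would turn every sign. Between arrays of a group, Cy3 varied more than Cy5 for 95.3% of 7074 probes above background in both channels. One array stood apart. C-G0 replicate 1 had the largest mean absolute deviation from its group mean over all tested probes, 0.45, followed by C-G1 replicate 2 with 0.38. On it Lyz2 was -1.65, Ctss -1.44 and Cd68 -1.23, each the lowest of the 24 arrays, and the main Cd36 probe was 0.79, the highest. The mean log2 ratio of 6 NK cell genes was -1.20 on that array, of 7 erythroid genes 0.40 and of 6 platelet genes 0.46. For the main member differences that involve C-G0, values without this array are given as well.

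On all arrays, none of the 5 measured genes passed the test in any of 11 comparisons with either probe (limma's moderated test, adjusted p under 0.05 over all probes tested). In LPS-G0 vs. C-G0, 0.0097% of all tested probes passed. The share was 8.93% in LPS-G1 vs. LPS-G0 and 0% for LPS-G2 against the same controls, 0.028% in C-G1 vs. C-G0 and also 0.028% in C-G2 vs. C-G0. It was 0.00934% in LPS-G1 vs. C-G1, 0% in LPS-G2 vs. C-G2, 0.0187% for LPS over the 3 diets and 0% in LPS-G1 vs. LPS-G2. For the LPS effect on G1 minus that on G0, and likewise for G2, it was 0% and 0%. At an unadjusted p under 0.05 the members counted 2 of 5 in LPS-G1 vs. LPS-G0 against 26.9% of all probes, 1 of 5 in LPS-G2 vs. LPS-G0 against 8.23%, 3 of 5 in C-G1 vs. C-G0 against 27.9%, and 1 of 5 in C-G2 vs. C-G0 against 13.3%. In the other 7 comparisons the count was 0 of 5, against 15.2% in LPS-G0 vs. C-G0, 2.81% in LPS-G1 vs. C-G1, 1.09% in LPS-G2 vs. C-G2, 9.61% for LPS over the diets, 4.21% in LPS-G1 vs. LPS-G2, and 3.01% and 5.57% for the differences in LPS effect on G1 and G2. The analysis of variance with Tukey's HSD of the study's methods, run on the same values with Benjamini-Hochberg adjustment, called 0 members in the 3 comparisons against C-G0 or LPS-G0 that the study made. Of all 10313 probes it called 1 between LPS-G0 and C-G0, 1 between LPS-G1 and LPS-G0, and 0 with LPS-G2. With so few probes called, its 0 members say little about these genes. The study used other software, its own probe filter and a fold-change cutoff. It reported many more differential transcripts in each of these comparisons.

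**Figure D2:**
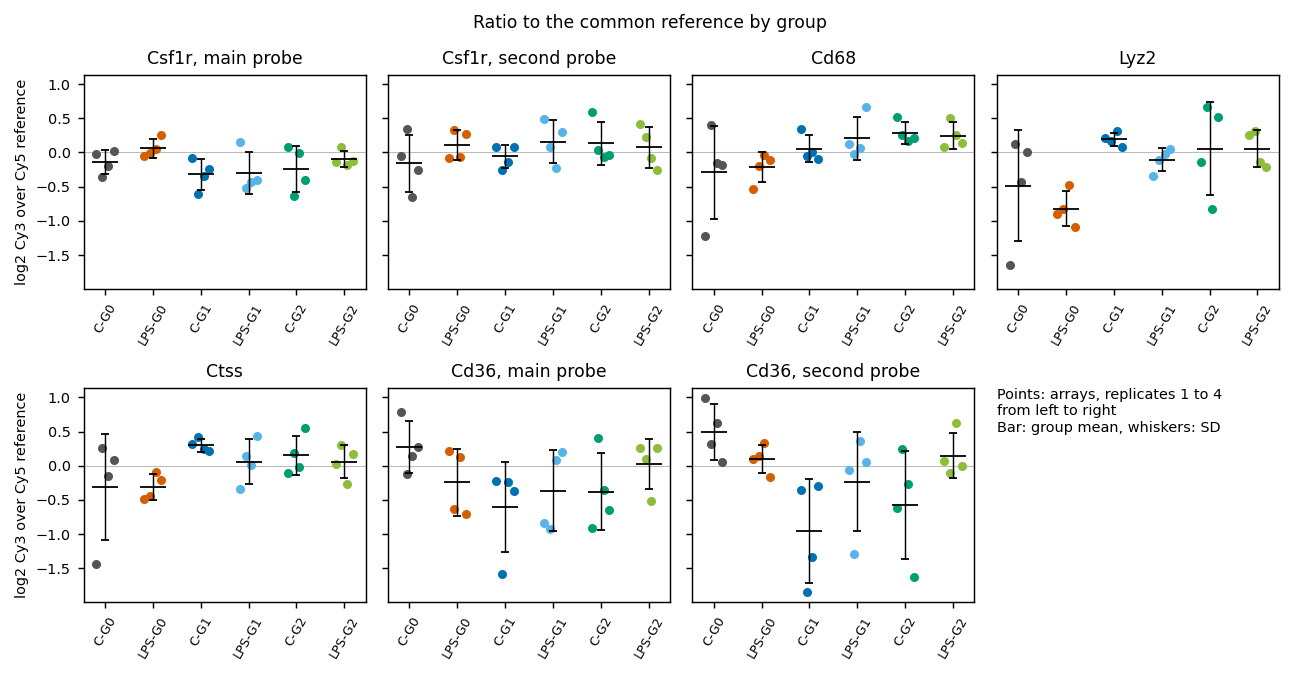
Log2 ratio of rat RNA over the common reference (y axis) for each tested probe by group (x axis), with 1 point per array, the group mean and SD as whiskers (n = 4). All 4 LPS-G0 arrays lie below all LPS-G1 and LPS-G2 arrays for Lyz2 and for Cd68, and C-G0 replicate 1 lies far below its group for Lyz2, Ctss and Cd68.

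No member had neighbouring group means farther apart than the spread of single arrays. For each of the 5 genes, the gap between neighbouring group means was smaller than the pooled SD within groups. That SD describes single arrays, so the gaps do not test whether the means differ. Lyz2 had the widest span of group means, 1.02, from C-G1 (0.20 ± 0.10, SD, n = 4) through C-G2 (0.06 ± 0.68), LPS-G2 (0.05 ± 0.27), LPS-G1 (-0.11 ± 0.17) and C-G0 (-0.49 ± 0.81) to LPS-G0 (-0.82 ± 0.26). Cd36 spanned 0.87, Ctss 0.61, Cd68 0.58 and Csf1r 0.38. Ctss and Cd68 both had C-G0 and LPS-G0, the 2 groups without beta-glucan, as their lowest means, as Lyz2 had. For C-G0 this rests in part on replicate 1, which read -1.65 for Lyz2, -1.44 for Ctss and -1.23 for Cd68. The other C-G0 arrays read 0.26, -0.15 and 0.09 for Ctss, around its LPS-G1 mean of 0.06. For Lyz2 they read 0.13, -0.43 and 0.00, around its LPS-G1 mean.

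Lyz2 gave the clearest separation among the LPS-injected rats. It read -0.90, -0.82, -0.47 and -1.08 in LPS-G0 replicates 1 to 4. It read -0.34, -0.11, -0.02 and 0.05 in LPS-G1 and 0.26, 0.31, -0.14 and -0.21 in LPS-G2. Every LPS-G0 array was thus below every array of the LPS-injected rats fed beta-glucan. In LPS-G1 vs. LPS-G0 the difference was 0.71 (SE 0.29, limma adjusted p = 0.129), and the exact permutation test over the 8 arrays gave p = 0.0286, the smallest it can give. For LPS-G2 against LPS-G0 the difference was 0.87 (SE 0.29, limma adjusted p = 0.597), again with an exact permutation p of 0.0286. With limma array weights the difference for LPS-G1 was 0.77 (adjusted p = 0.00598) and passed the test, where 27.6% of all probes passed. The 2 comparisons share the LPS-G0 arrays. Each slide held only 1 or 2 arrays of a group. Within slides 1, 2 and 3 the difference was 0.52, 0.41 and 1.13 in the first and 1.12, 0.78 and 0.91 in the second. When LPS-G0 replicates 3 and 4, whose labels conflict, were left out, it was 0.76 and 0.92.

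Cd68, a heavily glycosylated protein of the lysosomal membrane used as a macrophage marker, showed the same separation with a smaller difference. Its values were -0.53, -0.19, -0.03 and -0.11 in LPS-G0. They were 0.12, -0.03, 0.06 and 0.66 in LPS-G1 and 0.08, 0.51, 0.26 and 0.14 in LPS-G2. LPS-G0 and LPS-G1 are separated by less than 0.01, since LPS-G0 replicate 3 and LPS-G1 replicate 2 nearly coincide. The differences were 0.42 (SE 0.26, limma adjusted p = 0.30) for LPS-G1 and 0.46 (SE 0.26, limma adjusted p = 0.607) for LPS-G2 against LPS-G0, each with an exact permutation p of 0.0286. Cd68 and Lyz2 were the 2 of 5 members whose groups did not overlap. This held in LPS-G1 vs. LPS-G0, where 21.9% of all tested probes did not overlap, and for LPS-G2 against LPS-G0, where 10.5% did not. Ctss, a lysosomal cysteine protease that trims the invariant chain of MHC class II, differed by 0.37 in both comparisons, with limma adjusted p of 0.405 and 0.693, and its groups overlapped. Neutrophils also carry lysozyme, and 6 of 13 listed neutrophil genes were tested. Their mean log2 ratio ranged from -0.61 to -0.18 in LPS-G0, from -0.45 to 0.00 in LPS-G1 and from -0.25 to 0.84 in LPS-G2. Each range with beta-glucan overlapped that of LPS-G0. At an unadjusted p under 0.05, the LPS-G1 comparison had 0 of the 6, against 26.9% of all probes. The LPS-G2 comparison had 4 of the 6, all higher, against 8.23%. After adjustment 0 of these genes passed the test in either comparison, where 8.93% and 0% of all probes passed. Their part in the values of Lyz2 was not tested.

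Csf1r, the receptor for colony-stimulating factor 1, did not follow Lyz2, Cd68 and Ctss. Its main probe read -0.06, -0.01, 0.05 and 0.25 in LPS-G0 and 0.15, -0.52, -0.43 and -0.41 in LPS-G1. Of the LPS-G1 arrays, 3 were below all LPS-G0 arrays and replicate 1 was above 3 of them. The difference in LPS-G1 vs. LPS-G0 was -0.36 (SE 0.16, limma adjusted p = 0.157, exact permutation p = 0.114). Without LPS-G1 replicate 1 it was -0.51 (SE 0.14, limma adjusted p = 0.0286), which passed the test, where 12.3% of all probes passed. With array weights on all 16 arrays it was -0.39 (limma adjusted p = 0.0315) and also passed, where 27.6% of all probes passed. Within slides 1, 2 and 3, from only 1 or 2 arrays of a group each, it was 0.19, -0.52 and -0.66. The second probe gave 0.05 (SE 0.22, limma adjusted p = 0.898) in the same comparison, with values of -0.09, 0.33, -0.07 and 0.27 in LPS-G0 and 0.49, 0.08, -0.23 and 0.30 in LPS-G1. The difference was thus seen with 1 of the Csf1r probes, and across the 24 arrays they correlated with r = 0.295 (Spearman's rho 0.266, permutation p = 0.162 and 0.209). Without the 2 arrays farthest from the median of the main probe, r was 0.254.

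**Figure D3:**
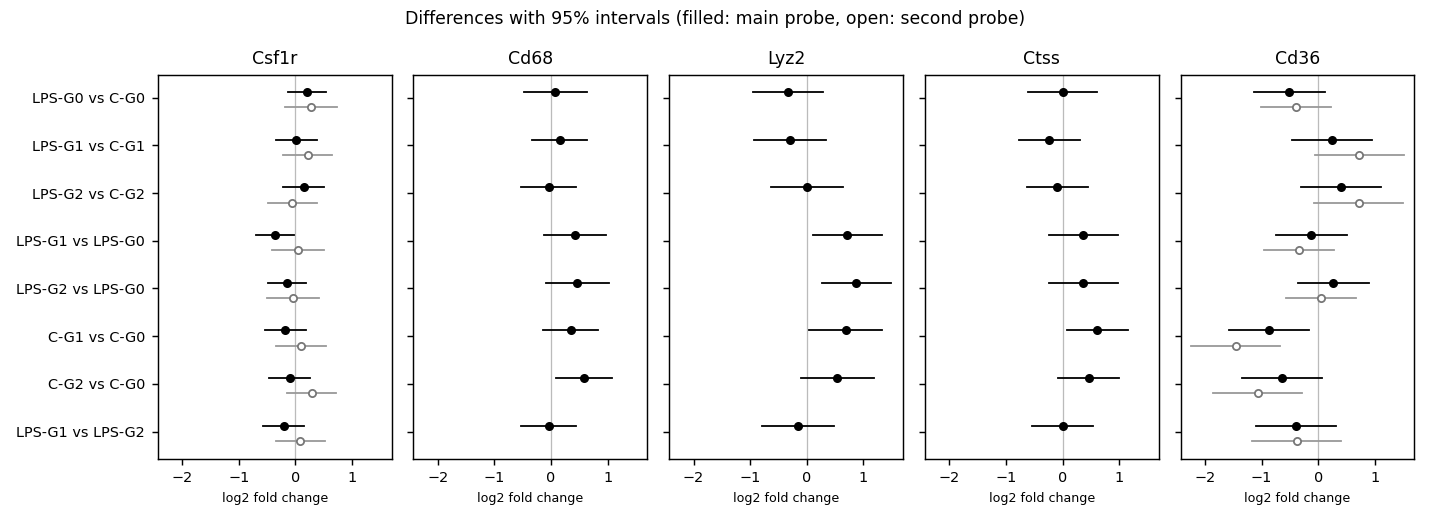
Log2 fold change (x axis) with its 95% confidence interval from limma for the 5 tested genes in 8 comparisons (y axis), filled for the main and open for the second probe of Csf1r and Cd36. The Lyz2 intervals lie above 0 in both LPS-injected beta-glucan groups against LPS-G0 and in C-G1 vs. C-G0. Ctss in C-G1 vs. C-G0 and Cd68 in C-G2 vs. C-G0 also lie above 0. The second Cd36 probe lies below 0 in C-G1 vs. C-G0 and C-G2 vs. C-G0. The main Cd36 probe in C-G1 vs. C-G0 and the main Csf1r probe in LPS-G1 vs. LPS-G0 also lie below 0. None passed after adjustment.

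LPS on the control diet gave small differences in the members. In LPS-G0 vs. C-G0 they ranged from -0.51 for Cd36 (SE 0.30) to 0.20 for Csf1r (SE 0.16), and the lowest limma adjusted p was 0.428. Lyz2 differed by -0.33 (95% confidence interval -0.95 to 0.28). The C-G0 values of Lyz2 were -1.65, 0.13, -0.43 and 0.00, so replicate 1 alone lay below the LPS-G0 arrays. Without it, Lyz2 was lower in LPS-G0 by -0.72 (SE 0.19, limma adjusted p = 0.0259) and passed the test, where 11.1% of all probes passed. Without that array Ctss differed by -0.37 (limma adjusted p = 0.197), Cd68 by -0.24 (0.431), Cd36 by -0.34 (0.486) and Csf1r by 0.24 (0.343). The group mean of 6 NK cell genes was -0.44 in C-G0 and 0.35 in LPS-G0, and that of 6 neutrophil genes 0.03 and -0.43. Their part was not tested.

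LPS within the beta-glucan diets gave no member difference past the test. By main probe, the members in LPS-G1 vs. C-G1 ranged from -0.30 for Lyz2 to 0.24 for Cd36, and in LPS-G2 vs. C-G2 from -0.09 for Ctss to 0.40 for Cd36. The second Cd36 probe gave larger values, 0.72 (SE 0.38, unadjusted p = 0.0693, limma adjusted p = 0.95) in LPS-G1 vs. C-G1 and 0.72 (SE 0.38, unadjusted p = 0.0712, limma adjusted p above 0.99) in LPS-G2 vs. C-G2. Lyz2 in LPS-G1 vs. C-G1 did not overlap, with 0.21, 0.17, 0.32 and 0.09 in C-G1 against the LPS-G1 values above, and was the 1 member of 5, against 2.73% of all probes; the exact permutation p was 0.0286 and the limma adjusted p 0.95. Over the 3 diets the LPS difference was -0.21 for Lyz2 (95% confidence interval -0.58 to 0.15) and 0.12 for Csf1r (-0.09 to 0.33), both with limma adjusted p above 0.70. Without C-G0 replicate 1 it was -0.34 for Lyz2 (SE 0.14, unadjusted p = 0.0241, limma adjusted p = 0.211), 0.13 for Csf1r, and -0.23 for Ctss in place of -0.11 (SE 0.10, unadjusted p = 0.0331, limma adjusted p = 0.229), where 19.3% of all probes had an unadjusted p under 0.05. No member's groups were separated in LPS-G0 vs. C-G0, C-G2 vs. C-G0, LPS-G2 vs. C-G2 or LPS-G1 vs. LPS-G2, where 5.04%, 2.64%, 1.07% and 6.57% of all probes were.

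In rats without LPS, Lyz2, Ctss and Cd68 had higher and Cd36 lower group means on both beta-glucan diets than on the control diet, without passing the test. Ctss read -1.44, 0.26, -0.15 and 0.09 in C-G0 and 0.32, 0.42, 0.25 and 0.21 in C-G1, so the groups overlapped at C-G0 replicate 2. In C-G1 vs. C-G0, Lyz2 differed by 0.68 (SE 0.31, limma adjusted p = 0.161, exact permutation p = 0.0571), and Ctss by 0.61 (SE 0.26, limma adjusted p = 0.15, exact permutation p = 0.0857). In C-G2 vs. C-G0, Cd68 differed by 0.58 (SE 0.24, limma adjusted p = 0.303, exact permutation p = 0.114), with -1.23, 0.39, -0.15 and -0.18 in C-G0 and 0.52, 0.25, 0.17 and 0.21 in C-G2. The groups overlapped at C-G0 replicate 2. These differences rested in part on 1 array. Without C-G0 replicate 1, the difference in C-G1 vs. C-G0 was 0.30 for Lyz2 and 0.23 for Ctss, and that of Cd68 in C-G2 vs. C-G0 was 0.27. The median of the 5 members was then 0.03 in place of 0.34 in the first comparison and 0.09 in place of 0.46 in the second.

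Cd36, a scavenger receptor that takes up oxidized lipoproteins and fatty acids and that platelets and erythroid precursors also carry, had the largest difference of the members in the lower direction on both beta-glucan diets without LPS. The main Csf1r probe was also lower, by -0.18 in C-G1 and -0.10 in C-G2 against C-G0. The main Cd36 probe read 0.79, -0.12, 0.14 and 0.27 in C-G0 and -0.22, -1.58, -0.24 and -0.38 in C-G1. Every C-G1 array was below every C-G0 array, in 1 of 5 members against 7.04% of all probes. The difference was -0.87 (SE 0.34, limma adjusted p = 0.139, exact permutation p = 0.0286), -0.70 (SE 0.36) without C-G0 replicate 1, and -0.55 (SE 0.33) without C-G1 replicate 2.

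The second Cd36 probe gave a larger difference. It read 1.00, 0.32, 0.63 and 0.05 in C-G0 and -0.36, -1.85, -1.33 and -0.30 in C-G1, again without overlap. The difference was -1.46 (SE 0.38, unadjusted p = 8.63e-04, limma adjusted p = 0.104, exact permutation p = 0.0286), a 2.74-fold lower ratio. It was -1.29 (SE 0.41, limma adjusted p = 0.449) without C-G0 replicate 1. Without C-G0 replicate 4 it was -1.61 (SE 0.41, limma adjusted p = 0.0227) and passed the test, where 8.99% of all probes passed. In C-G2, where it read -0.62, 0.24, -0.27 and -1.63, the difference from C-G0 was -1.07 (SE 0.38, limma adjusted p = 0.252), and -0.90 (SE 0.41, limma adjusted p = 0.361) without C-G0 replicate 1. In LPS-injected rats the second probe differed by -0.34 in LPS-G1 and 0.05 in LPS-G2, each against LPS-G0. The LPS effect on G1 minus that on G0 was 1.12 (95% confidence interval 0.01 to 2.23, limma adjusted p = 0.999), and on G2 minus G0 1.11 (0.00 to 2.22, limma adjusted p = 0.832). With C-G0 replicate 1 left out, these were 0.95 (SE 0.56, unadjusted p = 0.102) and 0.95 (SE 0.56, unadjusted p = 0.104). The Cd36 probes correlated with r = 0.698 over the 24 arrays (rho 0.612, permutation p = 0.00015 and 0.00194) and r = 0.509 without the 2 arrays farthest from the median. The mean log2 ratio of 7 erythroid genes ranged from -0.12 to 0.40 in C-G0 and from -1.33 to -0.14 in C-G1, and their summed Cy3 signal from 366000 to 806600 and from 266200 to 416400. The mean of 6 platelet genes ranged from -0.41 to 0.46 in C-G0 and from -0.81 to 0.34 in C-G1. Their part in the values of Cd36 was not tested.

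In LPS-injected rats, the preparations of different molecular weight gave no member difference past the test when compared directly. The preparations were not compared directly in rats without LPS. Over 5 members, LPS-G1 vs. LPS-G2 gave -0.39 for Cd36 (95% confidence interval -1.09 to 0.32), -0.21 for Csf1r (-0.57 to 0.15), -0.16 for Lyz2 (-0.80 to 0.48) and -0.04 for Cd68 (-0.53 to 0.45). The Ctss interval ran from -0.54 to 0.54. All had limma adjusted p of 0.811 or more.

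Across the 24 arrays Lyz2, Ctss and Cd68 varied together. Of 10 pairs of measured genes, Lyz2 and Ctss correlated most closely (r = 0.849, rho 0.834, permutation p = 1e-05 for each, the smallest the permutations can give, adjusted 1e-04). Without the 2 arrays farthest from the median of Lyz2, C-G0 replicate 1 and LPS-G0 replicate 4, r was 0.78, and within slides 1, 2 and 3 it was 0.957, 0.749 and 0.736. Cd68 correlated with Ctss (r = 0.772, rho 0.536, permutation p = 0.00029 and 0.00787, adjusted 0.00117 and 0.0157) and with Lyz2 (r = 0.695, rho 0.532, permutation p = 0.00035 and 0.00771, adjusted 0.00117 and 0.0157). These 2 pairs rest in part on C-G0 replicate 1 and LPS-G0 replicate 1: without them r was 0.394 and 0.396. Within slides 1, 2 and 3, r was 0.919, 0.445 and 0.407 for Cd68 with Ctss and 0.913, 0.64 and 0.268 for Cd68 with Lyz2. On deviations from the group means, r was 0.802 for Lyz2 with Ctss, 0.76 for Cd68 with Ctss and 0.623 for Cd68 with Lyz2.

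**Figure D4:**
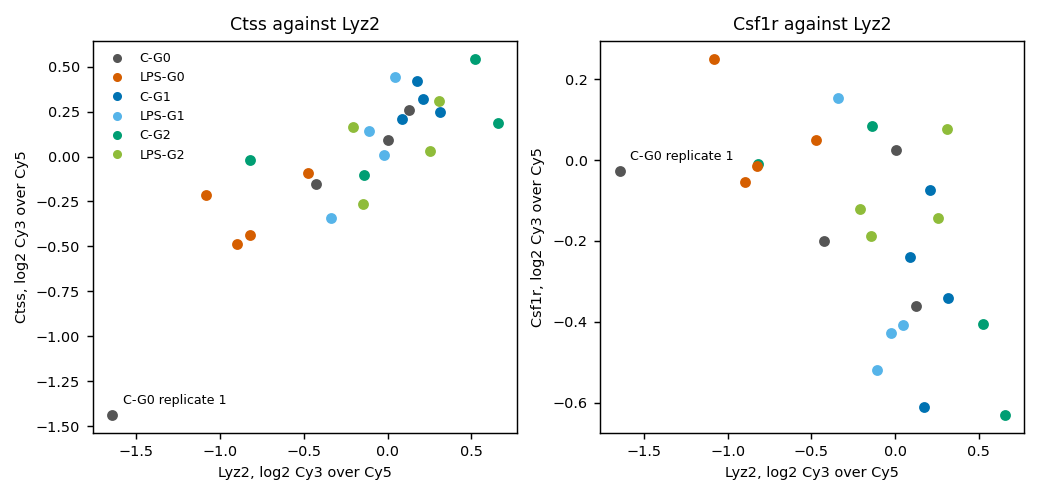
Log2 ratios of Ctss (left) and Csf1r main probe (right) on the y axes against Lyz2 on the x axes, 1 point per array (n = 24), colored by group. Ctss rises with Lyz2 (r = 0.849, 0.774 without C-G0 replicate 1), and the main Csf1r probe falls (r = -0.572, -0.613 without that array). The second Csf1r probe is not shown.

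The main Csf1r probe ran against Lyz2 and Ctss, but not clearly against Cd68 (r = -0.172, permutation p = 0.429, adjusted 0.536). It correlated with Lyz2 at r = -0.572 (rho -0.545, permutation p = 0.00332 and 0.00627, adjusted 0.0083 and 0.0157) and with Ctss at r = -0.478 (rho -0.54, permutation p = 0.0148 and 0.00749, adjusted 0.0296 and 0.0157). Without the 2 arrays farthest from the median of Csf1r, r was -0.494 and -0.434. On deviations from the group means, r was -0.46 with Lyz2 and -0.347 with Ctss. Within slides 1, 2 and 3, r with Lyz2 was -0.325, -0.448 and -0.839, and with Ctss -0.386, -0.359 and -0.76. All pairs used main probes. The second Csf1r probe, of like brightness, correlated with the main one at r = 0.295. It was not set against Lyz2 or Ctss, so the inverse relation is given for 1 of the Csf1r probes only. The other 5 pairs, Csf1r with Cd68 and all 4 of Cd36, had adjusted permutation p of 0.287 or more for r and of 0.824 or more for rho.

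The genes whose pattern over the 24 arrays was most like that of each member were then listed. All arrays share the reference RNA and lie on 3 slides, so these correlations are descriptions. The main Csf1r probe was most like Epb42 (r = 0.879), a red cell membrane skeleton protein on the erythroid list, then Csnk1d (0.867) and Rffl (0.862). Cd68 was most like Tnfsf13 (0.928), which encodes the cytokine APRIL, then Irf5 (0.909) and Ccdc109b (0.876). The Tnfsf13 probe lies at chr10:56500597-56500656, near the Cd68 probe. Lyz2 was most like Anxa2 (0.922), Rnaset2 (0.905) and Arpc3 (0.904). Ctss was most like Plac8 (0.924), Copb1 (0.906) and Zufsp (0.904). Cd36 was most like Ccni (0.846), Mxi1 (0.814) and Adipor1 (0.794). Without C-G0 replicate 1, r with the first gene named was 0.879 for Csf1r, 0.853 for Cd68 and 0.893 for Lyz2. For Ctss and Cd36 it was then 0.846 and 0.815, and r of Cd68 with Ccdc109b was 0.73. The median correlation over all tested probes lay between -0.05 and 0.06 for each member. Epb42 itself was lower in LPS-G1 vs. LPS-G0 by -0.93 (SE 0.27, limma adjusted p = 0.0408), as was Klf1, an erythroid transcription factor, by -0.81 (SE 0.20, limma adjusted p = 0.0289). These were 2 of 7 erythroid genes, where 8.93% of all probes passed, and the group mean of the erythroid list was 0.23 in LPS-G0 and -0.20 in LPS-G1. Its part in the values of the main Csf1r probe was not tested.

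The wider pathway gave 0 called genes on all arrays. Beside the members, 70 genes of the colony-stimulating factor 1 axis, monocyte surface, lysosome, scavenger receptors, macrophages and haem scavenging were listed, of which 69 were on the array and 46 or 47 were tested, depending on the comparison. By limma 0 passed the test in any of the 11 comparisons on all arrays. Without C-G0 replicate 1 the haem oxygenase gene Hmox1 passed in LPS-G0 vs. C-G0 (0.68, SE 0.19, limma adjusted p = 0.033, against 0.50 on all arrays), where 11.1% of all probes passed. With array weights 8 of 46 passed in LPS-G1 vs. LPS-G0, where 27.6% of all probes passed. Hmox1 also passed with array weights in LPS-G0 vs. C-G0, where 11.1% of all probes passed. At an unadjusted p under 0.05, LPS-G2 vs. LPS-G0 had 10 of 46 higher and 0 lower (21.7%, against 8.23% of all probes), with a median difference of 0.24 against -0.02 over all probes. Among them were Sirpa (0.53, SE 0.16) and Cd33 (0.75, SE 0.25), inhibitory receptors of myeloid cells, Lgals3 (0.78, SE 0.23), which encodes galectin-3, and Trem2 (0.97, SE 0.31), a lipid-sensing receptor, all with limma adjusted p = 0.597. LPS-G1 vs. LPS-G0 had 2 of 46 higher and 3 lower (10.9%, against 26.9% of all probes), and LPS-G0 vs. C-G0 5 higher and 2 lower (15.2%, against 15.2%). When C-G0 replicate 1 was left out, the latter had 3 higher and 7 lower (21.7%, against 29.5%), with a median of -0.10 in place of -0.01.

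In rats without LPS, C-G1 vs. C-G0 had 6 of 47 pathway genes higher and 4 lower (21.3%, against 27.9% of all probes), and C-G2 vs. C-G0 had 10 higher and 2 lower (25.5%, against 13.3%), at the same unadjusted threshold. The lowest p in C-G2 vs. C-G0 was that of Spi1, which encodes PU.1, with a difference of 1.54 (SE 0.32, unadjusted p = 7.99e-05, limma adjusted p = 0.101), and 1.54 (SE 0.35, limma adjusted p = 0.26) without C-G0 replicate 1. Without C-G0 replicate 1 the median of these 47 genes was 0.10 in place of 0.25 in C-G1 vs. C-G0 and 0.11 in place of 0.28 in C-G2 vs. C-G0, with 8 (17%, against 10.4% of all probes) and 11 genes (23.4%, against 12.8%) at an unadjusted p under 0.05. Without C-G0 replicate 4, 2 genes passed after adjustment in each comparison, Ctsd and Grn in C-G1 vs. C-G0, where 8.99% of all probes passed, and Spi1 and Fcer1g in C-G2 vs. C-G0, where 3.3% passed. Without C-G0 replicate 2, Klf4 passed in C-G1 vs. C-G0, where 0.0747% passed. The scavenger receptors were mostly dim, as Cd163 and Msr1 were. Of 11 further scavenger receptor genes on the array, Marco, Colec12, Cd5l, Mrc1, Scara3 and Scara5 were not well above background on any of the 24 arrays, and only 2 were tested, Scarb1 and Cxcl16.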

How the data were processed

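Processed Cy3 and Cy5 intensities and log10 ratios (Cy5 over Cy3) were deposited by the authors for each of 62976 spots on 24 arrays. Per the file headers they come from Agilent Feature Extraction 10.10.1.1, which subtracts background and balances the dyes within each array. The submitters' processing notes name version 10.7.3.1. A value table of log10 ratios over the series, also deposited, was identical for 1511424 of 1511424 values. The sign was turned and the base changed to log2. Spots marked as outliers (679 to 1133 per array) were dropped and spots of a probe averaged. A probe was tested when, on all 4 arrays of a group, at least 0.5 of its spots exceeded background in Cy3 by the scanner's flag. That share was taken after seeing the numbers of probes it leaves. This left 10313 probes for the 16 arrays of C-G0 and the LPS groups, used for LPS-G0 vs. C-G0 and for each LPS-injected beta-glucan group against LPS-G0, and 10708 for the 24 arrays used in the other comparisons.

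Linear models used limma 3.58.1 (R 4.3.3, with the package data.table in version 1.17.8), two-sided, with Benjamini-Hochberg adjustment over all probes tested. On simulated data for LPS-G0 vs. C-G0 with 10313 probes, 200 of them changed, the fit recovered 73% of 2-fold and 100% of 4-fold changes, with 8 false calls. By main probe no member difference reached 2-fold, and recovery of smaller changes is not given. Pairs of groups were compared for single members by exact permutation over 70 arrangements. Correlations used 100000 permutations, over the 10 pairs of measured members, since Cd163 and Msr1 were too dim for the 21 pairs first planned. The permutations shuffled all arrays without regard to group or slide, so their p-values also take in differences between groups. The nearest genes were sought among probes with a gene symbol, leaving out accession-like names. Promoter sequences are from RefSeq, GRCr8, and 6 of 7 members matched by symbol. Members, lists and tests were chosen with earlier results of these data known. Values per array were given for members with an unadjusted p under 0.05 in a comparison of 2 groups. The number of arrays limits the precision. Alternatives were other filters, normexp with loess, Cy3 alone, slide or replicate blocks, array weights, a variance trend, the analysis of variance of the methods and leaving out arrays.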

Additional observations from a re-analysis of the deposited data

Results flagged for a closer look

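In groups of 4 arrays, 2 of the 30 combinations of measured member and group held an array whose gap to the nearest other exceeded Dixon's 95% critical value, a rate of about 1 in 20 by chance. The main Csf1r probe in LPS-G1 was 0.15 in replicate 1, while the other 3 arrays lay between -0.52 and -0.41. The main Cd36 probe in C-G1 was -1.58 in replicate 2, while the other 3 arrays lay between -0.38 and -0.22. C-G1 replicate 2 also had the second largest mean deviation of all arrays, 0.38.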

How the results depend on the processing

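By main probe, the number of members called stayed at 0 in 9 of the 11 comparisons under every alternative run, that is, other filters on dim probes, normexp with loess, Cy3 alone, slide or replicate block, variance trend, array weights, the series table, all 24 arrays and leaving out arrays. In LPS-G1 vs. LPS-G0 array weights called 2 members, Lyz2 (0.77, adjusted p = 0.00598) and Csf1r (-0.39, adjusted p = 0.0315), with 27.6% of all probes called. Leaving out 1 array gave between 0 and 1 in that comparison and between 0 and 1 in LPS-G0 vs. C-G0, and 0 elsewhere. Without C-G0 replicate 1 the call was Lyz2 in LPS-G0 vs. C-G0, and without LPS-G1 replicate 1 it was Csf1r. The second Cd36 probe passed in C-G1 vs. C-G0 with the replicate block (-1.46, adjusted p = 0.0433, with 5.6% of all probes called) and without C-G0 replicate 4 (-1.61, adjusted p = 0.0227). Over its settings Lyz2 in LPS-G2 vs. LPS-G0 ranged from 0.73 to 1.12 (adjusted p 0.0925 to 0.936), Lyz2 in LPS-G1 vs. LPS-G0 from 0.41 to 1.13, and Cd36 in C-G1 vs. C-G0 from -1.16 to -0.44. Csf1r in LPS-G1 vs. LPS-G0 ranged from -0.66 to 0.19, the positive value being that within slide 1. The filters that count a probe as above background when any or all of its spots are were added after seeing the data, and called 0 members.

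With a replicate block, Lyz2 was 0.71 (adjusted p = 0.118) in LPS-G1 vs. LPS-G0 and the number of members called by main probe was 0 in every comparison. Arrays of different groups with the same number correlated at 0.111 on average (lowest -0.307) and those with different numbers at -0.038, so the numbers were not taken to pair the arrays. The cause of these shifts was not tested.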
